A study of Mus musculus with 18 samples.

Results

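The 6 genes followed here hold back Wnt signalling and are themselves induced by it in many tissues: Axin2, Nkd1, Znrf3, Apcdd1, Wif1 and Dkk1. They were chosen by name, and all array probe sets that the platform annotation assigns to one of these symbols alone were read. These were 17 probe sets of 6 genes, out of 45101 probe sets and 18194 named genes on the array. RNA of tumours or of thymocytes was taken from 18 mice and hybridized to 1 Affymetrix expression array per mouse. The lymphoma group held 8 CD4Cre-ctnnbex3 mice with lymphoma, and 5 further CD4Cre-ctnnbex3 mice were sampled before T cell transformation. In both groups Cre is driven by Cd4 regulatory sequences, which are active in developing T cells, and acts on an allele of Ctnnb1 (ctnnbex3), the gene of beta-catenin, so that the protein escapes degradation. The reference was 5 control mice, described as wild type in the sample labels and as LckCre in the design text. Ages were not given in the sources used here, and the design text calls the mice of each group independent. Which cells of a mouse had recombined was not given.

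Canonical Wnt signalling acts by keeping beta-catenin from being degraded, so that it enters the nucleus and activates target genes with TCF/LEF factors. Several of those targets encode inhibitors of the same pathway, which forms a negative feedback loop. Axin2 is a scaffold of the complex that destroys beta-catenin, Nkd1 binds Dishevelled, and Znrf3 is a membrane ubiquitin ligase that removes Frizzled receptors. Apcdd1 is a membrane glycoprotein that binds Wnt and LRP5, Wif1 is secreted and binds Wnt ligands, and Dkk1 is secreted and blocks the coreceptor LRP6. Znrf3, Apcdd1, Wif1 and Dkk1 act upstream of beta-catenin, at the level of ligand and receptor.

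Promoters from the RefSeq table (GRCm38.p6) are shown for 4 of the 6 genes, which differ in whether their signal rose in the mutant mice. Those of Apcdd1 and Znrf3 are not shown, so the 4 do not stand for all members. Each window runs from 250 bases before to 50 bases after an annotated start. Matches on either strand to CTTTG, the core of the sites that TCF/LEF factors bind, are in capitals. Matches to the longer forms CTTTGTT and CTTTGAT are in capitals over their whole length. Axin2 lies at chr11:108920099-108920398 on the plus strand, Nkd1 at chr8:88527383-88527682 (plus), Wif1 at chr10:121033754-121034053 (plus) and Dkk1 at chr19:30549447-30549746 (minus).
Axin2: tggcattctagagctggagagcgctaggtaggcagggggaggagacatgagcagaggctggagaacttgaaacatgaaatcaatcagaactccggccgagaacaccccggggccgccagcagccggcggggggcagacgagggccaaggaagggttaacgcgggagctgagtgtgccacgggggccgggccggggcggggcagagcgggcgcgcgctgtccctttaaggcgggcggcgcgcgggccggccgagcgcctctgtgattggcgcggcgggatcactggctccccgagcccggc
Nkd1: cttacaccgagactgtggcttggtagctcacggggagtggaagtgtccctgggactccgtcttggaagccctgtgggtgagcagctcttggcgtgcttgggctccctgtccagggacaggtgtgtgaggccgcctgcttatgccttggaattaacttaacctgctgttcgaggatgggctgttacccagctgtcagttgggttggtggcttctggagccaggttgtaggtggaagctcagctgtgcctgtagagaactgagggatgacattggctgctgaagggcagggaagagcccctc
Wif1: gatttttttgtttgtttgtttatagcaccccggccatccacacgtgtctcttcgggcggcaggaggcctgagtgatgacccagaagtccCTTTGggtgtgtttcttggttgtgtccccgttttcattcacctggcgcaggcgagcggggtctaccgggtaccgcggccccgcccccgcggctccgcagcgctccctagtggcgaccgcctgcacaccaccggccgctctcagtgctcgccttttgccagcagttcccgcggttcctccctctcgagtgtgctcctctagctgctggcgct
Dkk1: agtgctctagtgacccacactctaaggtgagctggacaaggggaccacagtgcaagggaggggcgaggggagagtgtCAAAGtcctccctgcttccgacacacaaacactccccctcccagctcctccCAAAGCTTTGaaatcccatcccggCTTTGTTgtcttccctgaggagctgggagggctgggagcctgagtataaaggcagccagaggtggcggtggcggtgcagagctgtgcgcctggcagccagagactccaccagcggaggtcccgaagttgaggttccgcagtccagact
The Axin2 and Nkd1 windows held 0 matches to the core, the Wif1 window held 1, which began 161 bases before the start, and the Dkk1 window held 4. The longer form CTTTGTT, which contains the core, occurred once, in Dkk1, and CTTTGAT occurred in none of the 4 windows. Of 32851 promoter windows of this length 53.9% held CTTTG, 5.85% held CTTTGTT and 3.73% held CTTTGAT on either strand. The Axin2 window was 70% G or C with 31 CpG, against 58.3% and 6 in Nkd1, 63.0% and 25 in Wif1 and 60.7% and 9 in Dkk1. The Wif1 and Dkk1 windows hold the outermost annotated start of the gene, while the Axin2 and Nkd1 windows lie inside the annotated gene, downstream of its outermost start. The matches describe the letters of these windows only.

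The median signal of the arrays lay between 125 and 166, and Pearson r between pairs of arrays lay between 0.716 and 0.983. Signals are the authors' linear probe-set intensities. Blank values and values under 53.5, the 20th percentile of the table, were set to 53.5 before log2 was taken, and this value is called the floor. Where at least 50% of a group lay at the floor a fold is given as at least its size. T cell genes were measured in all groups, with Cd3e at 977 to 1544 in lymphomas, 2627 to 3827 before transformation and 3662 to 4380 in controls. Ptcra, a marker of immature thymocytes, was at the floor in all 8 lymphomas. By their Xist and Eif2s3y signals 6 lymphomas were female, 1 (number 3) was male and 1 (number 4) gave both signals, all 5 mice before transformation were male, and 2 controls were female and 3 male. For lymphomas against mice before transformation a fit with sex as a covariate, which leaves out lymphoma 4, rests on lymphoma 3. It is given for the brightest probe set of each gene called in that comparison and for some dimmer ones. The calls of the other Apcdd1 probe sets ended in it too. Differences within the mice numbered 1 and 2 and within those numbered 3 and up are given where they differ from each other or end a call. What the numbers stand for is not stated in the labels. By signal controls 1 and 2 were female and controls 3 to 5 male, so among controls number set and sex cannot be told apart. Against controls, mice 1 and 2 before transformation set males against females, and mice 3 to 5 males against males. Lymphomas 1 and 2 were female like controls 1 and 2, while lymphomas 3 and up, mostly female, were set against male controls.

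Of the 17 probe sets 15 passed the filter on dim signals, and 9 of these did so only through the lymphoma arrays, so that they had to be higher there. The 9 were Axin2 1421341_at, Nkd1 1417278_a_at and 1440446_at, Wif1 1425425_a_at and all Apcdd1 probe sets tested. Counts over the 15 therefore describe them and are no evidence of a direction. A change is called where limma's adjusted p over 29947 probe sets was under 0.05. In lymphomas against mice before transformation 12 of the 15 rose and 0 fell, where 14.7% of all probe sets tested rose, 22% fell and 36.7% changed. In lymphomas against controls 13 rose and 1 fell, where 15.6% rose, 25.4% fell and 40.9% changed. In mice before transformation against controls 5 rose and 0 fell, where 4.48% rose, 5.91% fell and 10.4% changed. All mice of the first group lay above all of the second for 2 probe sets in lymphomas against mice before transformation (6.07% of all tested), for 12 in lymphomas against controls (7.12%) and for 8 in mice before transformation against controls (4.42%). The 3 comparisons share mice and are not independent of each other. After quantile normalization the calls over the whole array were split differently, with 6236 higher and 5891 lower in lymphomas against mice before transformation in place of 4413 and 6590 (5370 and 5425 after centring on array medians), and with 6876 and 6411 in lymphomas against controls in place of 4671 and 7592 (5984 and 6137). After quantile normalization the member counts were 12 rises in the first of these and 14 rises with 1 fall in the second. By gene, with the brightest probe set of each, 4 of 6 genes rose in lymphomas against mice before transformation, 5 rose and 1 fell in lymphomas against controls, and 3 rose before transformation against control. Of 14018 genes tested by 1 probe set each, 2244 rose and 2572 fell, 2434 rose and 3184 fell, and 611 rose and 867 fell in the same order of comparisons. Apcdd1 and Wif1 entered this count only through the lymphoma arrays.

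**Figure D1:**
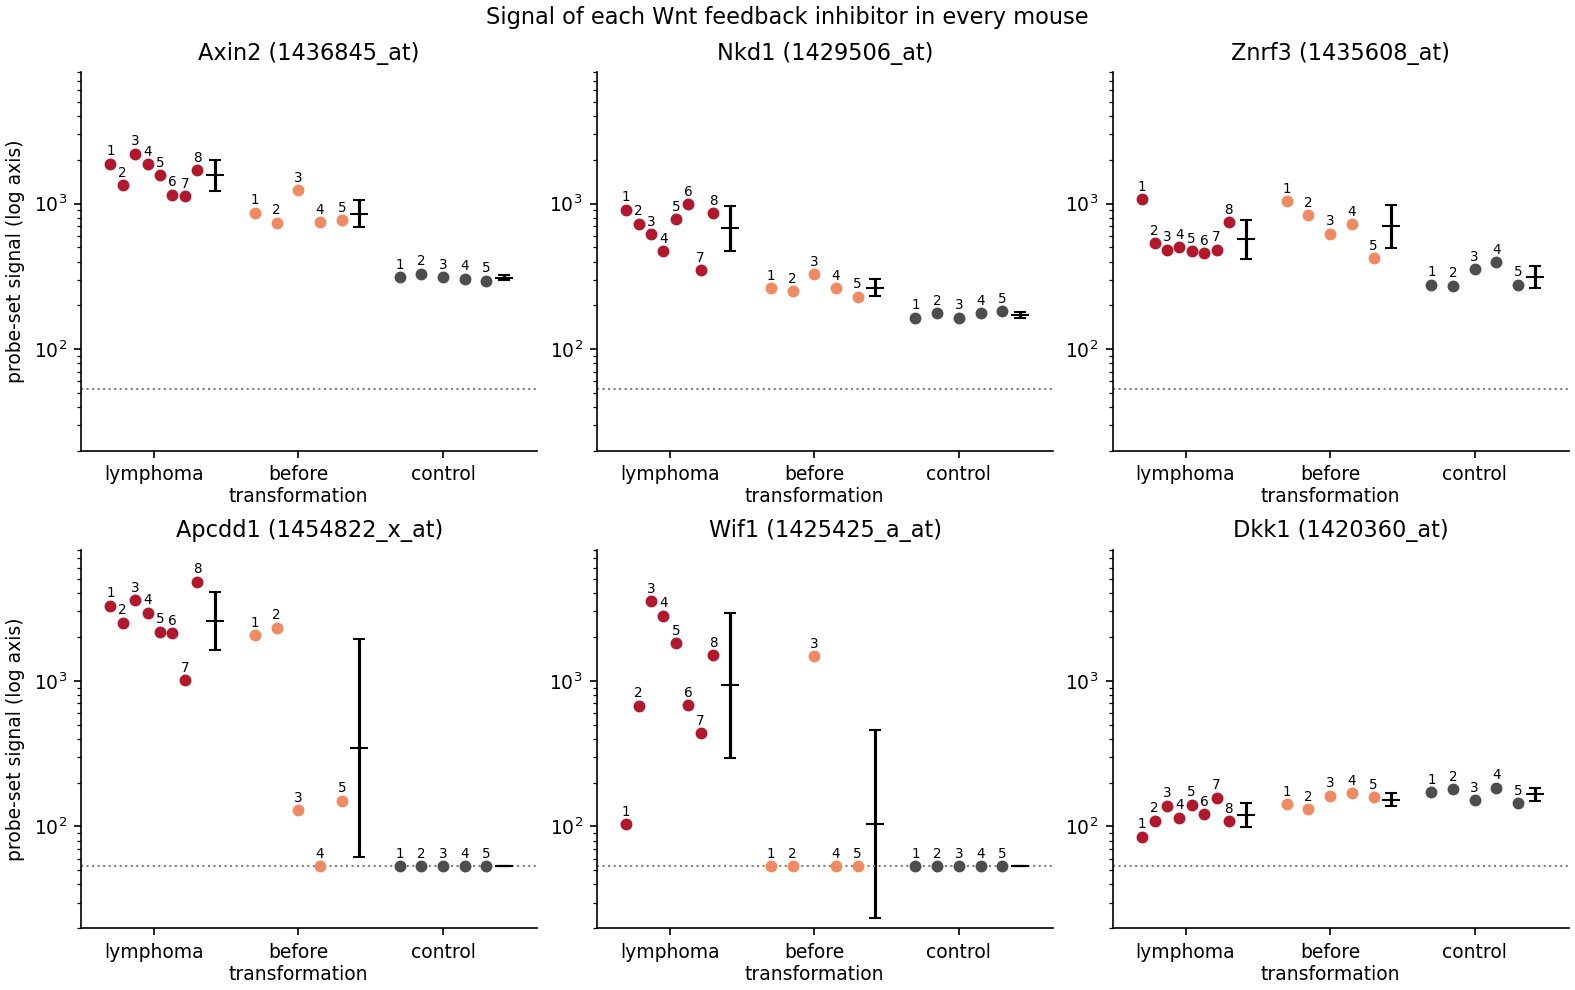
Signal of the brightest probe set of each gene in every mouse, on a log axis with values at or under the floor (dotted line, 53.5) drawn on it. Numbers are mouse numbers, and bars give the mean of log2 signal with its SD. Axin2 and Nkd1 are highest in lymphomas and lowest in controls, Apcdd1 and Wif1 are at the floor in all controls and uneven before transformation, and Dkk1 is lowest in lymphomas.

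**Figure D2:**
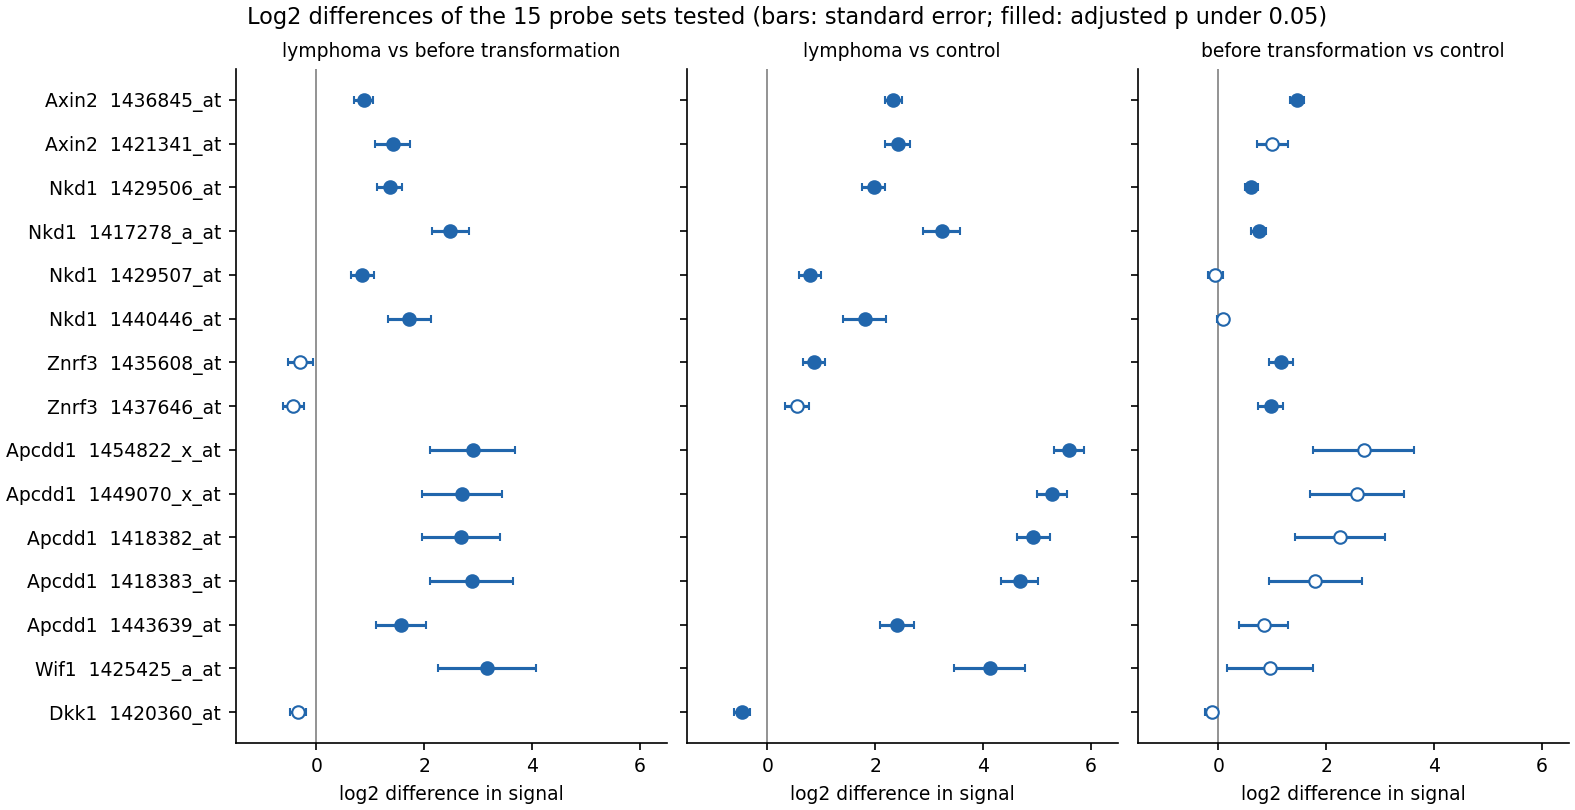
Log2 difference in signal of the 15 probe sets tested, by comparison, with standard errors from limma. Filled points passed an adjusted p of 0.05. Probe sets of Axin2, Nkd1, Apcdd1 and Wif1 lie to the right of 0 in lymphomas, those of Znrf3 lie right of 0 against control and left of it against mice before transformation, and Dkk1 lies left of 0.

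Axin2, the scaffold of the destruction complex, rose before transformation and was higher again in lymphomas. Its brighter probe set, 1436845_at, gave signals of 1130 to 2208 in the 8 lymphomas with a median of 1636. Before transformation it gave 865, 740, 1237, 743 and 770 in mice 1 to 5, and in controls 312, 331, 311, 305 and 295. All lymphomas and all mice before transformation thus lay above every control, while mouse 3 before transformation lay above lymphomas 6 and 7. The log2 difference was 0.88 ± 0.18 (SE) between lymphomas and mice before transformation (limma adjusted p = 0.00166). It was 2.33 ± 0.16 between lymphomas and controls (5.04-fold, limma adjusted p = 5.09e-08) and 1.46 ± 0.14 between mice before transformation and controls (2.75-fold, limma adjusted p = 3.54e-05). Differences in mice 1 and 2 and in mice 3 and up were close, at 0.99 and 0.81 for the first of these comparisons, 2.31 and 2.36 for the second and 1.32 and 1.55 for the third. With sex as a covariate the difference between lymphomas and mice before transformation was 1.37. That value rests on lymphoma 3, which at 2208 was the highest of the 8 tumours for this probe set.

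The dimmer Axin2 probe set, 1421341_at, was at the floor in all 5 controls. It gave 167 to 495 in lymphomas, and 186, 161, 119, 57.7 and 68.2 in mice 1 to 5 before transformation. The lymphomas were at least 5.33-fold above controls (limma adjusted p = 1.61e-06) and 2.66-fold above mice before transformation (0.00308). Mice before transformation were at least 2.0-fold above controls, without overlap, and the difference was not called (limma adjusted p = 0.0512). It was called in 7 of 26 other settings, among them without mouse 4 (0.0116) or 5 (0.0331) before transformation and in mice 1 and 2 alone (0.00591), and the adjusted p ran up to 0.260. Between lymphomas and mice before transformation the log2 difference was 0.64 in mice 1 and 2, where it was not called (0.194), and 1.90 in mice 3 and up. With sex as a covariate it was 2.21 (0.0528).

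Nkd1, the Dishevelled-binding inhibitor, rose before transformation and rose further in lymphomas. The brightest of its 4 probe sets, 1429506_at, gave 348 to 992 in lymphomas with a median of 754. It gave 263, 250, 328, 262 and 230 in mice 1 to 5 before transformation and 165, 176, 164, 178 and 183 in controls. The 3 groups did not overlap, and lymphoma 7 was the lowest tumour, next to mouse 3 before transformation. The difference was 1.36 ± 0.23 between lymphomas and mice before transformation (2.56-fold, limma adjusted p = 0.000357), and 1.97 ± 0.22 between lymphomas and controls (3.92-fold, 7.35e-06). It was 0.61 ± 0.11 between mice before transformation and controls (1.53-fold, 0.00430), with 0.59 in mice 1 and 2 and 0.63 in mice 3 and up. That call was lost in each of these sets alone (0.0886 and 0.0605) and with all 3 groups in 1 fit (0.130).

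The other Nkd1 probe sets differed in range. 1417278_a_at was at the floor in all controls, at 112, 104, 94.7, 67.3 and 78.6 in mice 1 to 5 before transformation, and at 145 to 860 in lymphomas. The lymphomas were 5.61-fold above mice before transformation (limma adjusted p = 0.000102) and at least 9.40-fold above controls (4.19e-06), and mice before transformation were at least 1.68-fold above controls (0.00551). This last call was lost with a floor at the 30th percentile (0.202), in mice 3 and up alone (0.0713) and with all 3 groups in 1 fit (0.284). 1440446_at was at the floor in all 5 controls and in 3 of 5 mice before transformation, and gave 59.6 to 357 in lymphomas, at least 3.31-fold higher than before transformation (limma adjusted p = 0.00386) and at least 3.49-fold higher than in controls (0.00220). 1429507_at did not separate mice before transformation, at 86.2 to 132, from controls, at 111 to 130 (difference -0.06 ± 0.14, limma adjusted p = 0.893). In lymphomas it gave 128 to 367, which was 1.81-fold above mice before transformation (0.00692) and 1.74-fold above controls (0.00601). The first of these calls was lost in mice 3 and up alone (0.0619). All 4 probe sets thus rose in lymphomas against either group, and 2 of the 4 rose before transformation. Since 1417278_a_at and 1440446_at passed the filter only through the lymphoma arrays, their rise there is no separate support. With sex as a covariate none of the 4 was called between lymphomas and mice before transformation (limma adjusted p of 0.0627 to 0.371), at differences of 0.71 to 2.47.

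Znrf3, the ligase that clears Frizzled, rose in both mutant groups against controls, and its difference between lymphomas and mice before transformation was not called. Its brighter probe set, 1435608_at, gave 455 to 1079 in lymphomas with a median of 493. It gave 1042, 837, 622, 720 and 424 in mice 1 to 5 before transformation and 278, 273, 353, 397 and 277 in controls. Both mutant groups lay above all controls, and lymphomas and mice before transformation overlapped. Mice before transformation were 2.24-fold above controls (log2 difference 1.16 ± 0.22, limma adjusted p = 0.00455) and lymphomas 1.82-fold (0.87 ± 0.20, 0.00321). Lymphomas differed from mice before transformation by -0.30 ± 0.24 (limma adjusted p = 0.348). The rise before transformation was 1.76 in mice 1 and 2 and 0.76 in mice 3 and up, where it was not called (0.0880). Lymphoma 1 was the highest tumour for both Znrf3 probe sets.

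The second Znrf3 probe set, 1437646_at, gave 129 to 281 in lymphomas, 162 to 269 before transformation and 67.3 to 151 in controls. It was 1.96-fold higher before transformation than in controls (0.97 ± 0.23, limma adjusted p = 0.0188), and these groups did not overlap. The call was lost without control 4 (0.050), in mice 1 and 2 alone (0.0593) and with no filter (0.0560). The difference of lymphomas from controls was 0.55 ± 0.23 (limma adjusted p = 0.0652), and it was called in 6 of 27 settings, among them with the set of mouse numbers as a block (0.0120), in mice 3 and up alone (0.0264), without control 1 (0.0423), with 3 groups in 1 fit (0.0438) and after quantile normalization (0.0495). Against mice before transformation it was -0.43 ± 0.19 (0.0908) and passed without lymphoma 1 (-0.54, 0.00964).

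Apcdd1, the Wnt-binding membrane glycoprotein, was far above the floor in all lymphomas, at it in all controls, and split the mice before transformation. The brightest probe set, 1454822_x_at, gave 1014 to 4804 in lymphomas with a median of 2731. Before transformation it gave 2061 and 2325 in mice 1 and 2, but 129, 48.0 and 150 in mice 3 to 5. All 5 controls lay under the floor, at 1.30 to 19.3. Mice 1 and 2 before transformation were therefore within the range of the lymphomas, and mice 3 to 5 lay below every lymphoma. The other probe sets showed the same mice high and low: 1449070_x_at gave 1728 and 1972 against 68.3 to 121, 1418382_at gave 1262 and 1474 against 62.7 to 103, and 1418383_at gave 945 and 1197 against 39.1 to 69.0. The dim 1443639_at gave 173 and 304 in mice 1 and 2, with mice 3 to 5 under the floor. 1437604_x_at was blank on 15 of 18 arrays, measured at 1051 and 412 in lymphomas 6 and 8 and at a negative value in control 1, and was not tested.

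For 1454822_x_at the lymphomas were at least 48.3-fold above controls (log2 difference 5.59 ± 0.27, limma adjusted p = 1.70e-09), with 5.75 in mice 1 and 2 and 5.54 in mice 3 and up. The other 4 probe sets tested were at least 5.31-fold to at least 38.7-fold above controls, each with a limma adjusted p of 3.18e-05 or less. Against mice before transformation the lymphomas were higher by 2.90 ± 0.78 (limma adjusted p = 0.00985), but the difference was 0.39 in mice 1 and 2, where it was not called (0.145), and 4.62 in mice 3 and up. The difference between these values was -4.23 ± 0.74 (interaction in limma, adjusted p = 0.0147, computed because the split had been seen), where 3.21% of all probe sets had such an interaction.

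Between mice before transformation and controls the pooled difference of 1454822_x_at was at least 2.69 ± 0.93 and was not called (limma adjusted p = 0.103). None of the 5 Apcdd1 probe sets tested was called (0.0970 to 0.333). In mice 1 and 2 the difference was at least 5.35 and in mice 3 and up it was at least 0.92. The difference between these values was 4.43 ± 0.50. It was computed because the signals had been seen to split this way, so its limma adjusted p of 0.00418 restates the split, as do the other 4 probe sets of the same gene, and neither is separate support. Of all 29947 probe sets 0.588% had an adjusted p under 0.05 for it. Without mouse 4 before transformation the pooled difference was 3.37 and was called (0.0298), as it was in 5 more of 27 settings. With the set of mouse numbers as a block, which is among these, it was called (0.0290), and so were 1449070_x_at (0.0250) and 1418382_at (0.0366). These calls use the sets along which the signals had been seen to split, and they are no separate support. With sex as a covariate the difference of lymphomas from mice before transformation was 3.38 and was not called (0.248). Array medians were 146 and 136 in mice 1 and 2 of this group and 157 to 166 in mice 3 to 5. The summed signal of 17 thymic epithelium markers was 12711 and 10634 in mice 1 and 2 and 11118 to 15365 in mice 3 to 5, and that of 12 fibroblast and stroma markers was 2574 and 1550 against 1958 to 2040. All 5 mice gave male signals. The part of these measures in the split was not tested.

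Wif1, the secreted Wnt-binding protein, had 1 probe set, 1425425_a_at. It gave 103 to 3520 in lymphomas with a median of 1095, so that the highest tumour (number 3) was 34.1-fold above the lowest (number 1). Before transformation mouse 3 gave 1473, mice 1, 4 and 5 gave 6.57, 11.0 and 23.4, and mouse 2 was blank. Controls were blank or at 5.43 to 10.2. The lymphomas thus all lay above the floor, and in the other groups mouse 3 before transformation did so. Lymphomas were at least 17.4-fold above controls (log2 difference 4.12 ± 0.65, limma adjusted p = 0.000172) and at least 8.97-fold above mice before transformation (3.17 ± 0.91, 0.0137). Without mouse 3 before transformation the second of these was 4.12 (limma adjusted p = 0.000889), and with sex as a covariate it was not called (0.0996). In mice 1 and 2 alone the difference of lymphomas was 2.30 against either group and was called against neither (0.107 against mice before transformation, 0.112 against controls). In mice 3 and up it was 3.13 against mice before transformation and 4.73 against controls. For mice before transformation against controls no fold is given, since both groups had at least 50% of mice at the floor.

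Mouse 3 before transformation also had the highest Axin2 and Nkd1 signals of its group for the brightest probe sets. For Apcdd1 it was among the low mice, at 129. Its Myc signal was 517, against 132 to 223 in the other 4 mice of the group, 1250 to 2489 in lymphomas and 437 to 488 in controls. Its Etv5 signal was 987, against 250 to 295 in the other 4 mice of the group. The 9 B cell markers summed to 3043 in this mouse, against 801 to 1211 in the other mice of the group, and it was the highest of the group for 6 of the 9. Ms4a1, which encodes CD20, was at 728 and Cd79a at 603. The 15 thymocyte and T cell markers summed to 54232, the lowest of the group, whose other mice had 67572 to 79205. The part of other cells in the Wif1 signal was not tested.

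**Figure D3:**
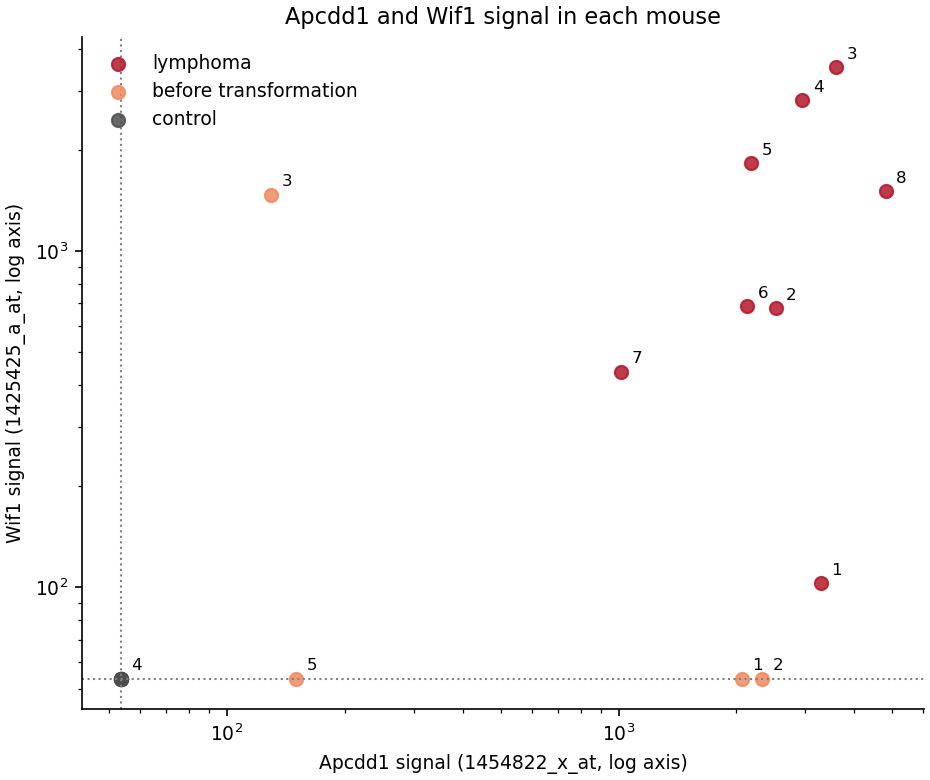
Apcdd1 signal against Wif1 signal in each mouse, both on log axes with the floor as dotted lines, and with mouse numbers beside the lymphomas and the mice before transformation. All 5 controls and mouse 4 before transformation sit at the floor for both genes, mice 1 and 2 before transformation have Apcdd1 at 2061 and 2325 with Wif1 at the floor, and mouse 3 has Wif1 at 1473 with Apcdd1 at 129. All 8 lymphomas are above the floor for both genes.

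Dkk1, the secreted blocker of LRP6, was the member that did not rise in any comparison. Its measured probe set, 1420360_at, gave 84.9 to 158 in lymphomas with a median of 118. It gave 143, 131, 162, 169 and 159 in mice 1 to 5 before transformation and 172, 180, 152, 185 and 145 in controls. The ranges of all groups overlapped. Lymphomas were lower than controls by -0.47 ± 0.15 on the log2 scale (1.38-fold lower, limma adjusted p = 0.0206), with -0.87 in mice 1 and 2 and -0.30 in mice 3 and up, where it was not called (0.132). That call was also lost without control 2 (0.0522) or control 4 (0.0543) and with sex as a covariate (0.0828). Lymphomas differed from mice before transformation by -0.34 ± 0.15 (0.0865), which passed without lymphoma 7 (0.0426) and with the set of mouse numbers as a block (-0.39, 0.0128), and mice before transformation from controls by -0.13 ± 0.12 (0.653). The other Dkk1 probe set, 1458232_at, lay under the floor on all arrays but that of lymphoma 2 (57.3) and was not tested.

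The lymphomas varied among themselves by gene. The highest tumour exceeded the lowest 1.95-fold for Axin2, 2.85-fold for Nkd1, 2.37-fold for Znrf3, 4.74-fold for Apcdd1, 34.1-fold for Wif1 and 1.86-fold for Dkk1 (brightest probe sets). Lymphoma 7 was the lowest for Axin2, Nkd1 and Apcdd1, and lymphoma 3 was the highest for Axin2 and Wif1. Over the 8 lymphomas Axin2 and Apcdd1 correlated at r = 0.761 (exact permutation p = 0.0197, two-sided, adjusted over 15 pairs 0.148; Spearman's rho 0.833, exact p = 0.0154, adjusted 0.115). Without the 2 tumours farthest from the median of Axin2 r was 0.497. Znrf3 and Dkk1 correlated at r = -0.829 (exact permutation p = 0.00409, adjusted 0.0614; rho -0.833, exact p = 0.0154, adjusted 0.115), with -0.525 without the 2 tumours farthest for Znrf3. None of the 15 pairs of members passed after adjustment. Axin2 and Wif1 had r = 0.346 over all 8 (exact permutation p = 0.406, adjusted 0.532) and 0.967 over lymphomas 3 to 8, a value picked after it was seen.

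Markers of several cell types differed between tumours and thymus alongside these genes, while of 5 endothelium markers tested 0 were called in any comparison. Of all probe sets tested 14.7% rose and 22% fell in lymphomas against mice before transformation, and 15.6% rose and 25.4% fell in lymphomas against controls. The 15 thymocyte and T cell markers summed to 23468 to 39402 in lymphomas, 54232 to 79205 before transformation and 66685 to 72299 in controls, and 13 of 15 fell in lymphomas against mice before transformation. The 12 myeloid markers summed to 8603 to 25271 in lymphomas, 3358 to 6466 before transformation and 4877 to 9994 in controls. Of the 12, 7 rose and 1 fell against mice before transformation, and 7 rose and 4 fell against controls. Of 9 fibroblast and stroma markers tested 3 rose and 0 fell in lymphomas against mice before transformation, and 5 rose and 0 fell against controls. The sums of all 12 on the array were 1523 to 7540 in lymphomas, 1550 to 2574 before transformation and 1466 to 1709 in controls. Lymphoma 8, the highest for the brightest Apcdd1 probe set, had the highest myeloid and fibroblast sums. Lymphoma 3, the highest for Axin2 and Wif1, had the highest sum of the 9 B cell markers, 6139, where the other lymphomas had 1227 to 3959. Of 7 B cell markers tested 1 rose and 0 fell in lymphomas against mice before transformation. Of 16 thymic epithelium markers tested 6 fell and 1 rose in lymphomas against mice before transformation, and 7 fell and 0 rose against controls. The sums of all 17 on the array were 4212 to 7548 in lymphomas, 10634 to 15365 before transformation and 5806 to 12273 in controls. In bulk RNA fewer cells of a type and less RNA per cell cannot be told apart, and the part of these markers in the members' differences was not tested.

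Other genes of the pathway were taken from lists, and those named are the up to 3 per direction with the smallest adjusted p, so that the counts, not the named genes, describe a list. Of all probe sets tested 14.7% rose and 22% fell in lymphomas against mice before transformation, 15.6% rose and 25.4% fell in lymphomas against controls, and 4.48% rose and 5.91% fell in mice before transformation against controls. Of 10 other secreted or surface antagonists tested, 2 rose and 1 fell in lymphomas against mice before transformation (median difference 0.21). The risers were Notum, a Wnt deacylase, by 0.71 and the LRP antagonist Sost by 0.70, and the Dkk receptor Kremen1 fell by 0.89. Against controls 3 rose and 1 fell (median 0.06). In mice before transformation against controls 0 rose and 1, the IGF-binding protein gene Igfbp4, fell by 1.59 (median 0.01). Of 24 other intracellular inhibitors, 1 rose and 5 fell in lymphomas against mice before transformation (median -0.18). Ctnnbip1, which keeps beta-catenin from TCF factors, rose by 0.79, while Tax1bp3 fell by 0.94, the corepressor gene Tle2 fell by 1.19 and Apc, a scaffold of the destruction complex, fell by 0.71. Against controls, mice before transformation had 2 rises and 1 fall (median 0.08): Dact1, a Dishevelled antagonist, rose by 1.61 and the kinase Nlk by 0.83, and Cxxc5, which binds Dishevelled, fell by 2.26. Axin1, the paralogue of Axin2, and Nkd2, that of Nkd1, were called in no comparison (limma adjusted p of 0.465 to 0.908 and of 0.194 to 0.891). Over all probe sets tested the median difference was -0.07 in lymphomas against mice before transformation, -0.07 against controls and -0.01 before transformation against control.

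Among 14 Wnt ligands, R-spondins and secretion factors, 2 rose and 4 fell in lymphomas against mice before transformation (median -0.24). Rspo2 rose by 0.79 and Wnt6 by 0.63, while Wls, the carrier that Wnt proteins need for secretion, fell by 2.31, Rspo3 fell by 1.26 and Wnt9a fell by 0.50. Mice before transformation had 2 rises and 0 falls against controls (median 0.04), in Wnt5b by 1.86 and in Wls by 0.66. Of 16 receptors and Dishevelled genes 1 rose and 1 fell in lymphomas against mice before transformation (median -0.01): the Wnt receptor Ryk was at least 3.09 higher on the log2 scale, and the R-spondin receptor Lgr4 fell by 0.54. Ryk was at 58.2 or less before transformation and at 7.52 or less in controls. It passed the filter only through the lymphoma arrays, so that it had to be higher there. No receptor or Dishevelled gene was called before transformation against control. Ctnnb1 itself differed by -0.06, 0.20 and 0.25 in lymphomas against mice before transformation, in lymphomas against controls and before transformation against control (limma adjusted p of 0.769, 0.262 and 0.0710). Of the 10 genes of beta-catenin and its nuclear partners tested, 0 rose and 2 fell in lymphomas against mice before transformation (median -0.21), with the coactivator Crebbp at -0.57 and the TCF gene Tcf7l2 at -1.04. Between mice before transformation and controls 0 rose and 3 fell (median -0.21), with Lef1 at -0.53, Crebbp at -0.44 and Bcl9, a beta-catenin cofactor, at -0.50.

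Of 30 other genes known as Wnt targets, 6 rose and 6 fell in lymphomas against mice before transformation (median 0.15). Lef1, Notum, Nkd2, Lgr5 and Dkk4 stand in this list and in one of those above, and are counted in both. Myc rose by 3.02, the transcription factor Prox1 by 1.44 and Tnfrsf19, a receptor of the TNF family, by 1.15, while the survival gene Bcl2l1 fell by 1.49 and the adhesion receptor gene Cd44 fell by 1.35 and Ascl2 fell by 0.33. Between mice before transformation and controls 3 rose and 5 fell (median 0.0), with Cd44 higher by 3.49, Bcl2l1 by 0.45 and the basic helix-loop-helix gene Ascl2 by 0.50. Among the falls Lef1 was at -0.53, the E-protein gene Tcf4 at -0.63 and Id2 at -1.44, and Myc was at -1.08. In lymphomas against controls 6 of the 30 targets rose and 6 fell. In that comparison 3 rose and 8 fell of 24 intracellular inhibitors, and 3 rose and 3 fell of 14 ligands and R-spondins. Of 16 receptors and Dishevelled genes 1 rose and 3 fell, and of 10 nuclear partners 0 rose and 6 fell.

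**Figure D4:**
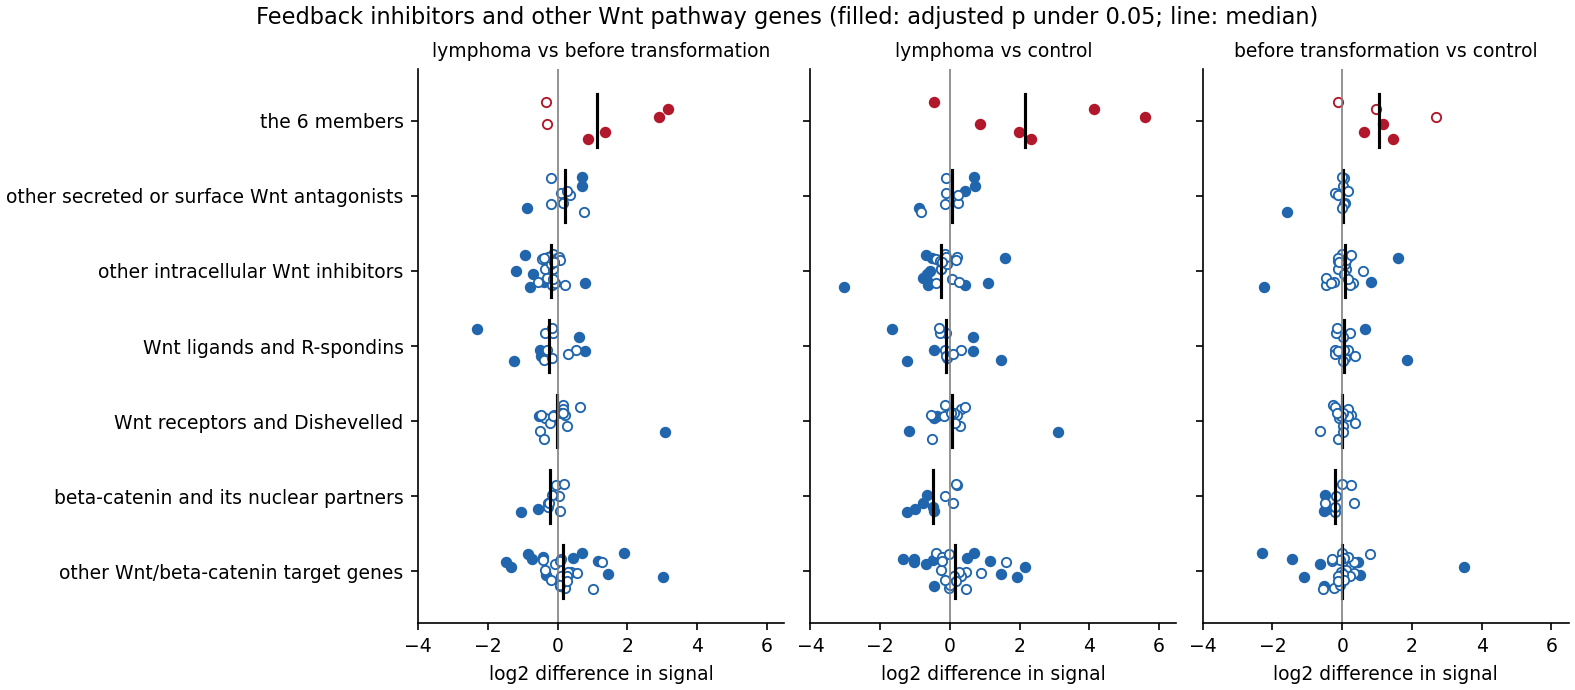
Log2 differences of the 6 members (red, brightest probe set) and of the tested genes of 6 other Wnt pathway lists (blue), by comparison. Filled points passed an adjusted p of 0.05 and black lines are medians. The medians of the other lists lie between -0.48 and 0.21, with single genes such as Myc and Ryk above 3 in lymphomas against mice before transformation. Ryk passed the filter only through the lymphoma arrays.

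The 5 genes whose brightest probe set followed that of Axin2 most closely over the 18 arrays, out of 14018, were Etv5 (r = 0.976), Zcchc14 (0.966), Hemgn (0.958), Enc1 (0.956) and Osbpl3 (0.949). Because the 3 groups differ, r over 18 arrays mainly follows the group means. The correlation of deviations from group means was 0.931 for Etv5, an ETS transcription factor, and 0.856 for Osbpl3, but 0.418 for Hemgn. Geometric mean signals of Etv5 were 1538 in lymphomas, 358 before transformation and 89.0 in controls. For Nkd1 the nearest genes were Tubb3 (0.967), the nucleoside transporter gene Slc29a1 (0.966), Acot2 (0.954), Slc25a33 (0.952) and Ipo4 (0.952), with correlations of deviations of 0.891 for Tubb3 and 0.883 for Slc29a1. Tubb3, a neuronal beta tubulin, had geometric mean signals of 736, 180 and 55.1 in the same order of groups. These likenesses are descriptions and were not tested.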

How the data were processed

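Total RNA of 18 mice was hybridized to 1 array each. The authors deposited 1 linear intensity per probe set and array, computed in dChip according to the design text. Version, expression model and scaling are not given in the sources. Of 811818 values 1.20% were blank, and 605 of 606 negative values lay on the array of control 1. Values were floored at the 20th percentile (53.5) and log2 was taken, and the deposited scaling was kept. Probe sets over the 40th percentile (109) on at least 5 arrays, 29947 of them, were tested. Each comparison was fitted on its 2 groups with limma 3.58.1 in R 4.3.3, with an intensity trend and Benjamini-Hochberg adjustment over all probe sets tested, two-sided, at 0.05. P-values measure the spread between mice, and their number limits the precision. Where all mice of a group were at the floor, the floor left no spread in that group. Its mice then enter the pooled variance without spread, which lowers that variance and can make the p-value too small. The code was tested on simulated data.

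Gene symbols came from the platform annotation table, where 34945 probe sets have 1 symbol, 932 several and 9160 none. Members and gene lists were chosen with earlier results of these data known. All member probe sets are described. Genes of the pathway lists stand by their brightest probe set, and up to 3 per direction with the smallest adjusted p are named, plus the paralogues of members and Ctnnb1, Myc and Etv5 in mouse 3, which were added after their values were seen. Likeness is Pearson's r of log2 signal. Promoters are from RefSeq (GRCm38.p6). Alternatives changed the scaling, floor, blanks, filter, trend, samples, probe sets per gene, mouse-number sets, sex and single mice.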

Additional observations from a re-analysis of the deposited data

Results flagged for a closer look

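Within groups, 38 sets of values of 1 probe set were examined for a mouse far from the rest, and 3 such mice were found. Chance gives about 1 in 20 for values without a floor, a rate that does not apply here, since the other mice were at or next to the floor. Wif1 was at 1473 in mouse 3 before transformation, with the other 4 mice of the group at the floor. Nkd1 1440446_at was at 68.9 in mouse 2 before transformation, with the others at or next to the floor, and Dkk1 1458232_at was at 57.3 in lymphoma 2, with all other lymphomas at the floor. As deposited, the other mice of these groups had 41.7 to 54.5 for Nkd1 1440446_at and 19.1 to 42.1 for Dkk1 1458232_at, so that these 2 mice stand apart only once the floor is set.

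The difference between groups was compared between mice 1 and 2 and mice 3 and up for 15 probe sets in 3 comparisons, with an interaction term in limma chosen after the Apcdd1 values were seen, and 9 of 45 had an adjusted p under 0.05, all of Apcdd1. In lymphomas against mice before transformation the difference was smaller in mice 1 and 2 by -4.23 for 1454822_x_at, -3.90 for 1449070_x_at, -3.61 for 1418382_at and -3.80 for 1418383_at on the log2 scale. Against controls, mice 1 and 2 before transformation had a larger difference than mice 3 to 5, by 4.43 for 1454822_x_at, 4.23 for 1449070_x_at, 4.04 for 1418382_at, 4.19 for 1418383_at and 2.10 for 1443639_at. The controls were at the floor, so the last 5 values depend on it.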

How the results depend on the processing

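Axin2 1436845_at kept its direction and its call in all 3 comparisons under every alternative run. In lymphomas against controls the probe sets of Nkd1 and Apcdd1 did so too. In lymphomas against mice before transformation the fit with sex as a covariate rests on lymphoma 3, the highest tumour for this Axin2 probe set. Calls in lymphomas against mice before transformation were moved most by sex as a covariate, which left 1310 probe sets and 1 of the member probe sets (Axin2) in place of 11003 and 12, and by mice 1 and 2 alone, with 7186 and 5. In mice before transformation against controls the member count of 5 was 10 with a floor at the 10th percentile, 9 with no floor and 32 added, 9 with the set of mouse numbers as a block, 9 in mice 1 and 2 alone and 2 in mice 3 and up alone. The counts with the block and in mice 1 and 2 alone include Apcdd1, whose split by these sets had been seen. The 3111 probe sets became 1761 with 3 groups in 1 fit and 2023 in mice with male signals alone. With 1 probe set per gene, so that fewer were tested, 4816 probe sets and 4 members were called in lymphomas against mice before transformation, 5618 and 6 in lymphomas against controls, and 1478 and 3 in mice before transformation against controls. Leaving out 1 mouse in turn gave 8791 to 11547, 10327 to 13042 and 2375 to 3323 probe sets in the same order of comparisons, and 11 to 13, 13 to 15 and 4 to 8 member probe sets, the 8 without mouse 4 before transformation. Directions turned in mice before transformation against controls for Nkd1 1429507_at, which was at -0.06 over all mice, 0.167 in mice 3 and up alone and 0.0075 with sex as a covariate or male signals alone (-0.11 to 0.0466 with 1 mouse left out, positive without mouse 2 before transformation), and for Dkk1 1420360_at, at -0.13 over all mice and 0.0338 in mice 3 and up alone. Neither was called. Some of these settings held fewer mice or probe sets. The causes of the changes between settings were not tested. Mice of the same number were not taken as paired: their deviations correlated at 0.08 to 0.38 in lymphomas against mice before transformation (4 of 5 over 0.1), -0.14 to 0.23 in lymphomas against controls (2 of 5) and -0.07 to 0.36 in mice before transformation against controls (2 of 5), and 2 of 5 matched their own number best in each. With the replicate number as a block 11515, 10763 and 3053 probe sets were called, with 12, 14 and 5 member probe sets. In lymphomas against controls Dkk1 was then not called (0.0636) and Znrf3 1437646_at was (0.0493). Signals near the floor limit Wif1, Apcdd1, Axin2 1421341_at and Nkd1 1417278_a_at and 1440446_at in controls, for which only bounds can be given. In the p-values of these probe sets against controls the controls count as mice without spread, which can make those p-values too small.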
